A study of Mus musculus with 3 samples.

Results

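VEGF and angiopoietin signalling genes were examined in inguinal stromal vascular fraction (SVF) cells, the cells left when adipocytes are removed from digested subcutaneous white fat. The 10 genes were *Vegfa*, *Vegfc*, *Vegfd*, *Flt1*, *Kdr*, *Flt4*, *Angpt1*, *Angpt2*, *Tek* and *Tie1*, chosen by symbol among the 32285 genes of the deposited count tables. The mice were 4 weeks old and were wild-type, carried a global deletion of *Mgp*, the gene of matrix Gla protein (*Mgp*-KO), or had a floxed *Mgp* deleted by Cre from a *Pdgfra*-cre transgene (*Pd*-KO). The transgene acts in *Pdgfra*-expressing cells, so *Pd*-KO cells of other lineages can keep *Mgp*, whereas the *Mgp*-KO deletion is in all cells. The *Mgp*-KO line is on a B6.129S7 background and the cre line on C57BL/6. Each genotype was 1 library of cells pooled from several mice, females and males mixed, sorted as live and without CD45. All 3 were entered here as 1 batch, which does not show that they were prepared together.

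VEGF-A signals through KDR on blood endothelial cells, while FLT1 binds it tightly and, in its soluble form, holds it back. VEGF-C and VEGF-D act mainly through FLT4, the receptor known from lymphatic growth. Angiopoietin 1 activates TEK (TIE2) on endothelium, angiopoietin 2 can act against it, and TIE1 is the partner receptor of TEK. In fat these ligands are made by adipocytes, stromal and mural cells, and the vessels carry the receptors.

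Cells were barcodes with at least 1000 unique molecular identifiers (UMIs) and at most 10% mitochondrial UMIs, which left 11350 cells in wild-type, 13086 in *Mgp*-KO and 9227 in *Pd*-KO. The libraries held 184102026, 93212243 and 83942865 UMIs in that order, and all further runs of 3 values follow it. Cells were placed in 9 gates by detected marker genes, none of which is one of the 10 genes. The endothelial gate held 806, 335 and 797 cells, the mural gate 790, 165 and 430, and the stromal progenitor gate 7509, 10900 and 7007. The summed level of the 6 endothelial markers was 4422, 4481 and 5181 CPM (UMIs per 1000000 UMIs of the same cells) in the endothelial gate, against 58.4, 16.7 and 34.4 CPM in the mural gate and 40.9, 26.1 and 37.8 CPM in the stromal gate. In the endothelial gate the 6 mural markers summed to 89.7, 26.7 and 52.8 CPM and the 6 stromal markers to 397, 220.03 and 216 CPM. *Mgp* itself was 483, 0.668 and 1.07 CPM in the stromal gate and 706, 0 and 50.1 CPM in the endothelial gate, and in the mural gate it was 322, 0 and 436 CPM. The adipocyte gate held 8, 9 and 1 cells. With 1 library per genotype there is no test and no replicate error: levels carry exact Poisson, shares exact binomial and ratios conditional binomial 95% intervals, which cover counting error only.

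The promoters of 4 receptor genes are shown because the levels of *Kdr*, *Flt1* and *Tie1* were 80.1 to 1191 times higher in the endothelial than in the stromal gate and that of *Tek* was not. *Flt4*, at 138, 259 and 388 times, belongs with the first group, and its promoter is given below in numbers alone. Each line gives the 250 bases before the RefSeq start in GRCm38.p6, in the 5′ to 3′ direction of the gene. Capitals mark AGGAAG or GGGCGG read on either strand, so that CTTCCT and CCGCCC are the same letters on the other strand. The windows are chr5:75978456-75978705 (minus strand) for *Kdr*, chr5:147726012-147726261 (minus) for *Flt1*, chr4:118489850-118490099 (minus) for *Tie1* and chr4:94739039-94739288 (plus) for *Tek*.
Kdr: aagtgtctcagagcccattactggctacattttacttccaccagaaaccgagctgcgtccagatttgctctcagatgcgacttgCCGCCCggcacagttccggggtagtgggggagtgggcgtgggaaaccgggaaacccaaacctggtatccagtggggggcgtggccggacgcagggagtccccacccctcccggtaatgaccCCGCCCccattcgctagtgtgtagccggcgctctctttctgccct
Flt1: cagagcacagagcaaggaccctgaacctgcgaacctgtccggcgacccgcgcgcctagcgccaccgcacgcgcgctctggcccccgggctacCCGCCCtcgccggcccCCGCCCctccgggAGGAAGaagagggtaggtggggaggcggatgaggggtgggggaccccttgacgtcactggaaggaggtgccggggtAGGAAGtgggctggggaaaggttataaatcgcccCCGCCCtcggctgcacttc
Tie1: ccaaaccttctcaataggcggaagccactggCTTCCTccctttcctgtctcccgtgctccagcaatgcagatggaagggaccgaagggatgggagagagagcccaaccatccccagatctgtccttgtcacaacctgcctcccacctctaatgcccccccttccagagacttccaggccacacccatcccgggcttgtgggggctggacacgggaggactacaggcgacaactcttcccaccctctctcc
Tek: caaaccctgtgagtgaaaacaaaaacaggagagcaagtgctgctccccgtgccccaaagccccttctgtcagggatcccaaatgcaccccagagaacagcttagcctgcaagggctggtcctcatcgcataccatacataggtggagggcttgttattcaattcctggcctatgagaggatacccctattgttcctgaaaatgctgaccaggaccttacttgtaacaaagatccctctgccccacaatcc

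AGGAAG holds the GGAA core read by ETS factors and GGGCGG is a GC box. The *Flt1* window held 2 of the first and 3 of the second, *Kdr* 0 and 2, *Tie1* 1 and 0, and *Tek* 0 and 0. The window of *Flt4* held 0 and 3, at a GC content of 68.4%. Among the 32851 RefSeq promoters of this length, 29.5% held AGGAAG and 32.7% held GGGCGG, so neither is rare. The other motifs searched, also on both strands, were ACGTG (16.6% of promoters), AGATAA (9.99%), CCAAT (33.8%) and TATAAA (12.4%), and of all 6 the *Tek* window held 0. GC content was 70.4% in *Flt1*, 61.6% in *Kdr*, 60.4% in *Tie1* and 51.2% in *Tek*, against a median of 52.4%. A match is a run of letters and not a bound site, and its lack in *Tek* covers this window alone. A promoter was given for 8 of the 10 genes.

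Receptors of the VEGF ligands were read first in the endothelial gate. *Kdr*, the main signalling receptor of VEGF-A, was at 795 CPM (95% interval 771 to 818), 855 CPM (800.3 to 913) and 1039 CPM (1005 to 1074). It was 152, 97.0 and 80.1 times its level in the stromal gate. Of the *Kdr* UMIs in gated cells, 86.9%, 56.5% and 79.9% lay in the endothelial gate, and 11.2%, 43.2% and 19.7% in the more numerous stromal cells. *Flt1*, the high-affinity VEGF-A receptor, was at 845, 1063 and 1387 CPM, or 268, 819 and 419 times its stromal level. Both genes were seen together in 63.0%, 54.6% and 72.4% of endothelial-gate cells, whose median depth was 5855.5, 2668 and 3512 UMIs. *Flt4*, the receptor of VEGF-C and VEGF-D, was at 43.0, 33.3 and 47.4 CPM there and at 0.311, 0.129 and 0.122 CPM in the stromal gate.

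Within the endothelial gate the receptors divided the vessel subsets differently. Subsets were called on 5 markers each: capillary (468, 256 and 643 cells), arterial (67, 17 and 33), venular (116, 31 and 56) and lymphatic (46, 3 and 5). *Kdr* was highest in the capillary subset, at 1144 CPM (1107 to 1182), 1036 CPM (966 to 1109) and 1185 CPM (1143 to 1227). In wild-type it was 622 CPM (544 to 707) in the lymphatic subset, 189.6 CPM (164 to 219) in the venular and 126 CPM (94.2 to 165) in the arterial subset, and the last 2 intervals overlapped. The capillary level was 9.07, 8.16 and 5.02 times the arterial one, so the order of these 2 subsets was the same in every library.

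*Flt1* spread more evenly over blood vessels and was all but missing from the lymphatic subset. It was 1115, 1133 and 1446 CPM in capillary cells, 664, 999 and 1329 CPM in arterial cells and 427, 784 and 605 CPM in venular cells. The capillary-to-arterial ratio was 1.68 in wild-type and 1.13 and 1.09 in the knockouts, where its interval on the log2 scale included 0 (-0.19 to 0.57 and -0.10 to 0.35). Lymphatic cells of wild-type held 2 *Flt1* UMIs, which is 5.40 CPM (0.655 to 19.5), and the few lymphatic cells of the knockouts held 0, the level of 3 UMIs being 315 and 123 CPM. *Flt4* was highest in lymphatic cells, with 181 CPM (140.3 to 230) in wild-type lymphatic cells against 38.7 CPM (32.2 to 46.3) in capillary and 4.99 CPM (1.62 to 11.6) in venular cells. The lymphatic level was 4.67 times the capillary one in wild-type, and the 2 and 9 UMIs of the knockout lymphatic cells gave 209.8 and 369.9 CPM.

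The angiopoietin receptors were present in all blood subsets. *Tek*, the receptor itself, was 213, 412 and 417 CPM in arterial, 155, 271 and 297 CPM in venular and 123, 137 and 213 CPM in capillary cells. Arterial cells were 1.74, 3.002 and 1.95 times as high as capillary cells, with all 3 intervals above 1. In wild-type lymphatic cells *Tek* was 27.0 CPM (12.96 to 49.7). *Tie1*, its partner, was 186, 212 and 271 CPM in capillary and 189, 174 and 362 CPM in arterial cells, which did not differ beyond counting error in any library. In venular cells *Tie1* was 107, 231 and 246 CPM, below the capillary subset in wild-type by 1.75 times and not apart from it in the knockouts.

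**Figure D1:**
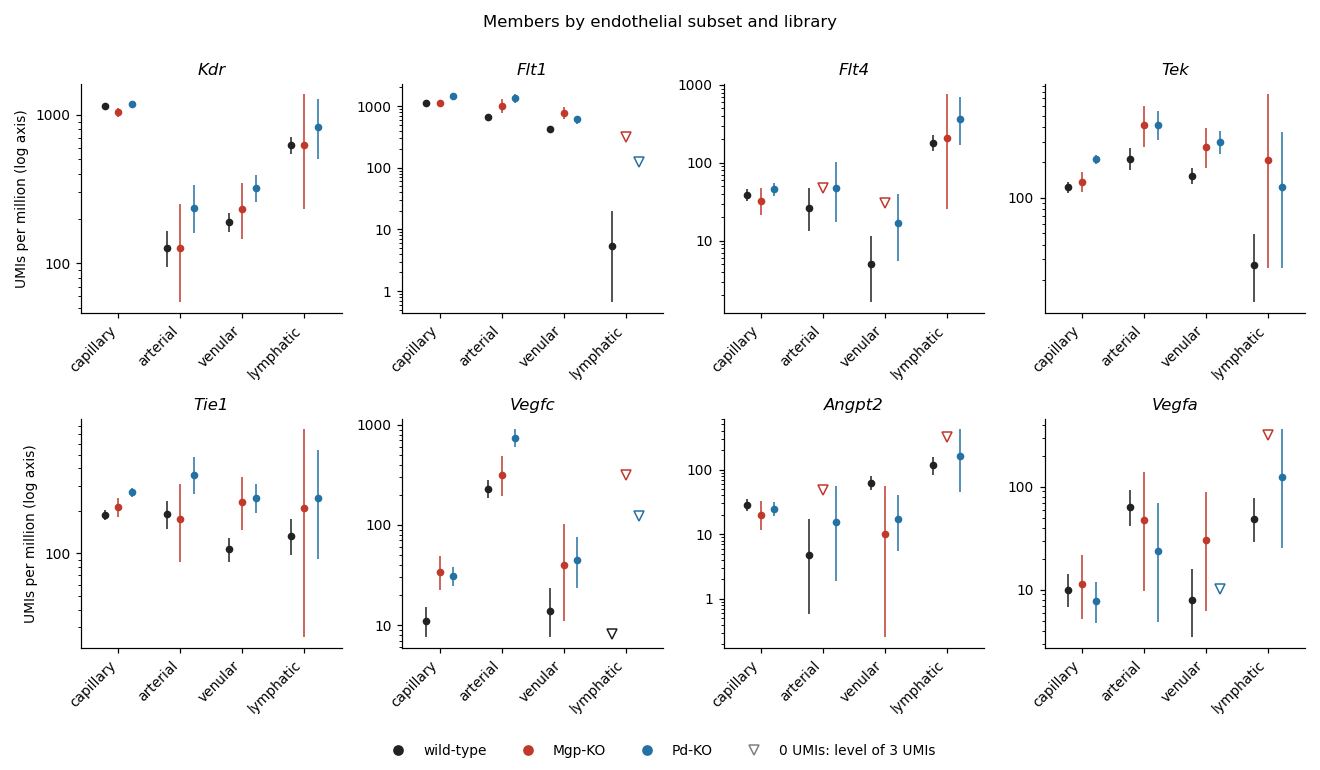
Levels of 8 of the genes in 4 endothelial marker subsets (CPM, log axis), 1 point per library with its 95% Poisson interval and open triangles where 0 UMIs were found, at the level of 3 UMIs. *Kdr* is highest in capillary cells, *Vegfc* in arterial cells (228, 317 and 739 CPM), and wild-type *Flt4* and *Angpt2* in lymphatic cells.

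*Tek* was the receptor that did not keep to the endothelium. In the stromal progenitor gate it was at 49.1 CPM (47.8 to 50.4), 169.9 CPM (167 to 173) and 225 CPM (222 to 229), against 129.9, 167 and 231 CPM in the endothelial gate. The endothelial level was thus 2.65, 0.981 and 1.02 times the stromal one, and in both knockouts the interval of that ratio included 1. *Tie1* in the same stromal cells was at 0.941, 0.180 and 0.626 CPM, 175, 1191 and 434 times below the endothelial gate.

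The stromal *Tek* signal lay mostly in the interstitial progenitor subset, the *Dpp4*- and *Pi16*-marked cells. There it was 106 CPM (103 to 109.7), 258 CPM (253 to 263) and 294 CPM (289 to 299). Preadipocyte-marker cells held 16.9, 66.3 and 65.3 CPM and the Areg subset, named after adipogenesis regulators and marked by *F3* and *Gdf10*, held 11.6, 23.0 and 24.7 CPM. The interstitial subset exceeded the preadipocyte subset 6.29, 3.89 and 4.49 times and the Areg subset 9.21, 11.2 and 11.9 times. Set against capillary endothelial cells it was 0.865, 1.88 and 1.38 times as high.

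Free RNA was measured beside this result in barcodes of 10 to 100 UMIs, where *Tek* was at 17.4, 116 and 199.8 CPM. Luminal epithelial cells, which should lack the gene, held 3.90, 0.773 and 3.42 CPM. After thinning every cell to 1000 UMIs, 10.1%, 19.7% and 25.5% of interstitial progenitors held a *Tek* UMI, against 0.676%, 0% and 1.83% of luminal cells (0 of 546 cells, which allows a share of up to 0.549%). Unthinned shares were 68.9%, 65.4% and 82.0% of interstitial cells at median depths of 14016, 6749 and 9713 UMIs, and luminal cells had medians of 20697, 8522.5 and 10283 UMIs. *Tie1*, which endothelial cells hold beside *Tek*, was seen in 1.22%, 0.161% and 0.485% of these interstitial cells.

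Cells without any endothelial marker UMI, a choice made after the data were seen, gave levels close to these. They were 1419, 4665 and 3364 of the interstitial progenitors, and they held *Tek* at 103, 255 and 296 CPM and *Tie1* at 0.577, 0.0893 and 0.246 CPM. *Kdr* was likewise kept in these cells. It was 8.65, 14.6 and 17.2 CPM in interstitial cells, and 8.91, 14.9 and 16.7 CPM in those without an endothelial marker, while *Flt1* in the latter was 1.78, 0.506 and 1.11 CPM. The preadipocyte subset held 3.08, 1.49 and 2.37 CPM of *Kdr*, so the interstitial subset was 2.81, 9.82 and 7.26 times higher. Thinned to 1000 UMIs, 1.22%, 1.63% and 1.61% of interstitial cells held a *Kdr* UMI, against 1.01%, 0% and 0% of luminal cells, so that in wild-type the share was near background. The 0 of 109 luminal cells of *Pd*-KO allow a share of up to 2.75%, and the 0 of 546 of *Mgp*-KO up to 0.549%. Free RNA held *Kdr* at 39.2, 20.2 and 78.7 CPM, above the interstitial level in all 3 libraries, and its part in that level was not tested.

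**Figure D2:**
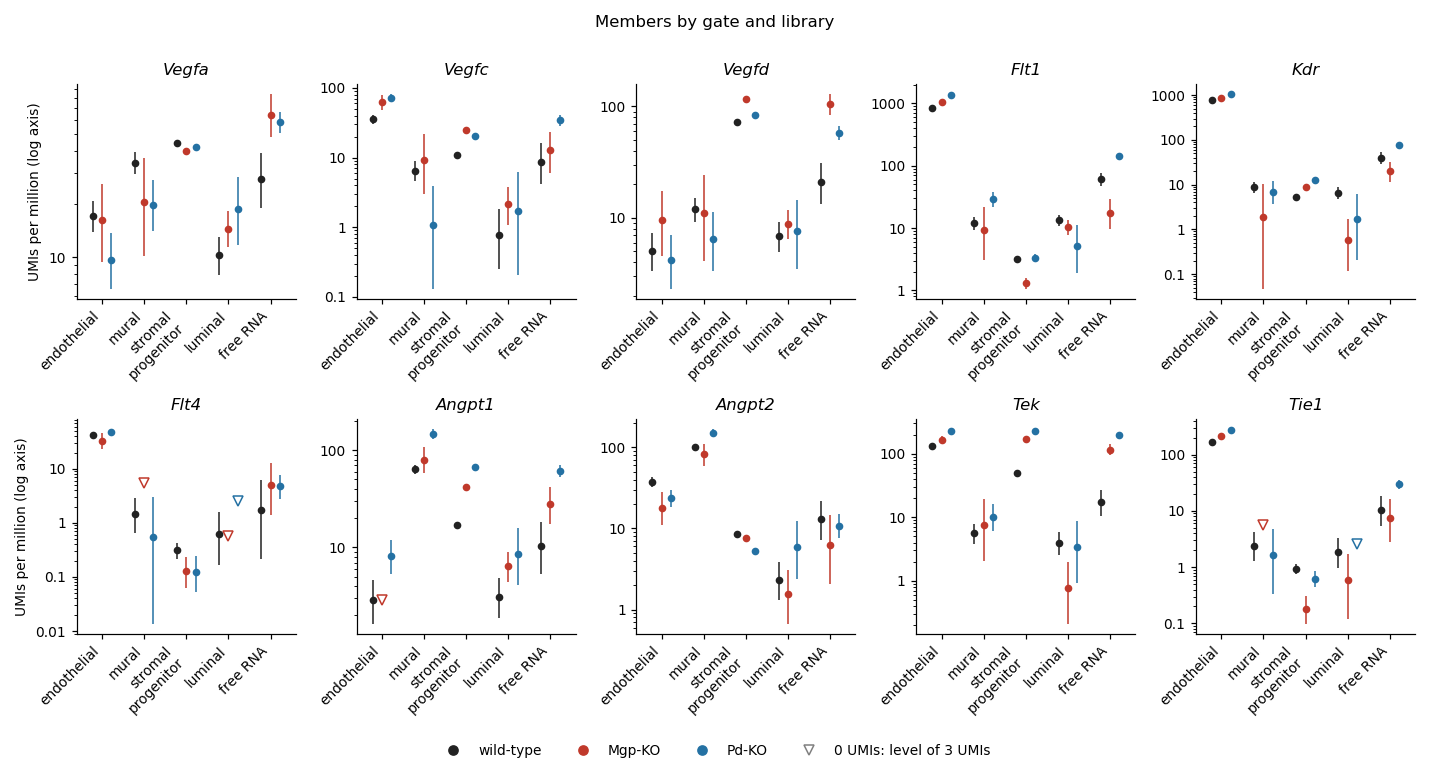
Levels of the 10 genes in 4 gates and in free RNA (CPM, log axis), 1 point per library with its 95% Poisson interval and open triangles where 0 UMIs were found, at the level of 3 UMIs. *Kdr*, *Flt1*, *Flt4* and *Tie1* are highest in the endothelial gate, while *Tek* is near the endothelial level in the stromal gate of both knockouts (169.9 and 225 CPM).

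*Flt1* was also detected in pericytes. It was 22.1, 13.9 and 29.2 CPM in the pericyte subset of the mural gate (43, 3 and 38 UMIs), and 24.3, 9.39 and 20.6 CPM in the pericytes with no endothelial marker. Luminal cells held *Flt1* at 13.3, 10.2 and 5.12 CPM and free RNA at 60.0, 17.7 and 143 CPM, above the pericyte level in all 3, and the part of free RNA in the pericyte signal was not tested.

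Among the ligands, *Vegfa*, the main signal for blood vessel growth, came almost wholly from stromal progenitors when summed over the gated cells. The stromal gate gave 92.8%, 96.0% and 96.6% of the gated *Vegfa* UMIs, a share that follows the number of cells as well as their level. Its level was 44.4, 40.0 and 42.4 CPM there, and 17.1, 16.2 and 9.66 CPM in the endothelial gate. Within the stromal gate the preadipocyte subset was above the interstitial subset, with 55.3, 52.5 and 82.4 CPM against 30.9, 31.7 and 27.5 CPM. That was a difference of 1.79, 1.66 and 2.999 times, and all 3 libraries had the same order. The Areg subset lay between them in every library, at 41.3, 43.8 and 70.7 CPM.

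Cells with at least 4 of the adipocyte markers, whatever else they held, were 81, 14 and 11 in number. They held *Vegfa* at 58.9 CPM (50.4 to 68.3), 127 CPM (81.2 to 189) and 81.7 CPM (45.7 to 135), or 1.33, 3.17 and 1.93 times the stromal gate. Arterial cells of wild-type were at 63.0 CPM (41.2 to 92.4) on 26 UMIs, and capillary cells at 9.93 CPM (6.75 to 14.1).

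*Vegfd*, a ligand of FLT4 also known as *Figf*, was a stromal gene here. Its stromal level was 72.6, 117 and 84.2 CPM, which was 6.1, 10.4 and 13.04 times the mural level, and the stromal gate gave 98.1%, 99.2% and 99.4% of its gated UMIs. Preadipocyte (72.8, 127 and 96.3 CPM) and interstitial cells (77.8, 109.1 and 82.4 CPM) were above the Areg subset (43.0, 81.5 and 44.6 CPM) in each library.

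*Vegfc*, the chief lymphatic growth factor, stood out in 2 subsets. In arterial cells it was 228 CPM (184 to 279), 317 CPM (194 to 489.9) and 739 CPM (597 to 904), which was 20.9, 9.32 and 24.0 times the capillary level. In lymphatic cells 0 UMIs were found in all 3 libraries, the level of 3 UMIs being 8.11 CPM in wild-type. The other was the Areg subset, at 24.9, 69.3 and 88.5 CPM, or 3.16, 5.38 and 7.85 times the interstitial subset. By sum, the stromal gate gave 83.0%, 95.2% and 84.1% of gated *Vegfc* UMIs and the endothelial gate 13.6%, 3.23% and 15.4%.

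*Angpt1*, the TEK agonist, had its highest level in mural cells among the 3 large gates, but most of its UMIs came from the more numerous stromal cells. It was 63.4 CPM (56.9 to 70.5), 79.98 CPM (57.9 to 108) and 147 CPM (131 to 166) in the mural gate, which was 3.72, 1.93 and 2.21 times the stromal level. By sum, the stromal gate gave 82.7%, 97.2% and 93.1% of the gated *Angpt1* UMIs and the mural gate 15.1%, 1.30% and 5.85%. Pericytes (74.9, 87.8 and 139.8 CPM) were above smooth muscle cells (44.3, 36.3 and 157 CPM) in wild-type and *Mgp*-KO, and in *Pd*-KO the 2 did not differ beyond counting error. Endothelial cells held 2.88, 0 and 8.15 CPM of *Angpt1*. Among the stromal subsets the Areg cells were highest in every library, at 25.9, 64.0 and 104 CPM, 1.78, 1.69 and 1.80 times the interstitial cells.

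*Angpt2*, the context-dependent counterpart of angiopoietin 1, is best known from activated endothelium. Its mural level here was 102 CPM (93.2 to 110.5), 81.8 CPM (59.5 to 109.9) and 151 CPM (134 to 170.0), and its endothelial level 37.2, 18.1 and 23.6 CPM, which put mural cells 2.73, 4.52 and 6.42 times higher. By sum, the stromal gate gave 54.7%, 87.9% and 47.9% of the gated *Angpt2* UMIs, the mural gate 31.5%, 6.58% and 39.2% and the endothelial gate 11.9%, 2.84% and 10.9%. The pericyte subset was at 129, 125 and 166 CPM. Wild-type lymphatic cells reached 116 CPM (84.1 to 157), venular cells 62.9 CPM and capillary cells 28.2 CPM, while arterial cells had 2 UMIs. Of the stromal cells, the Areg subset held 33.4, 37.1 and 39.8 CPM and the interstitial subset 4.20, 1.74 and 1.21 CPM, a ratio of 7.95, 21.4 and 32.8. Thinned to 1000 UMIs, 0.395% and 0.125% of interstitial cells of wild-type and *Mgp*-KO held an *Angpt2* UMI. In luminal cells the shares were 0.338% and 0.183%, so the interstitial signal was near background there.

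**Figure D3:**
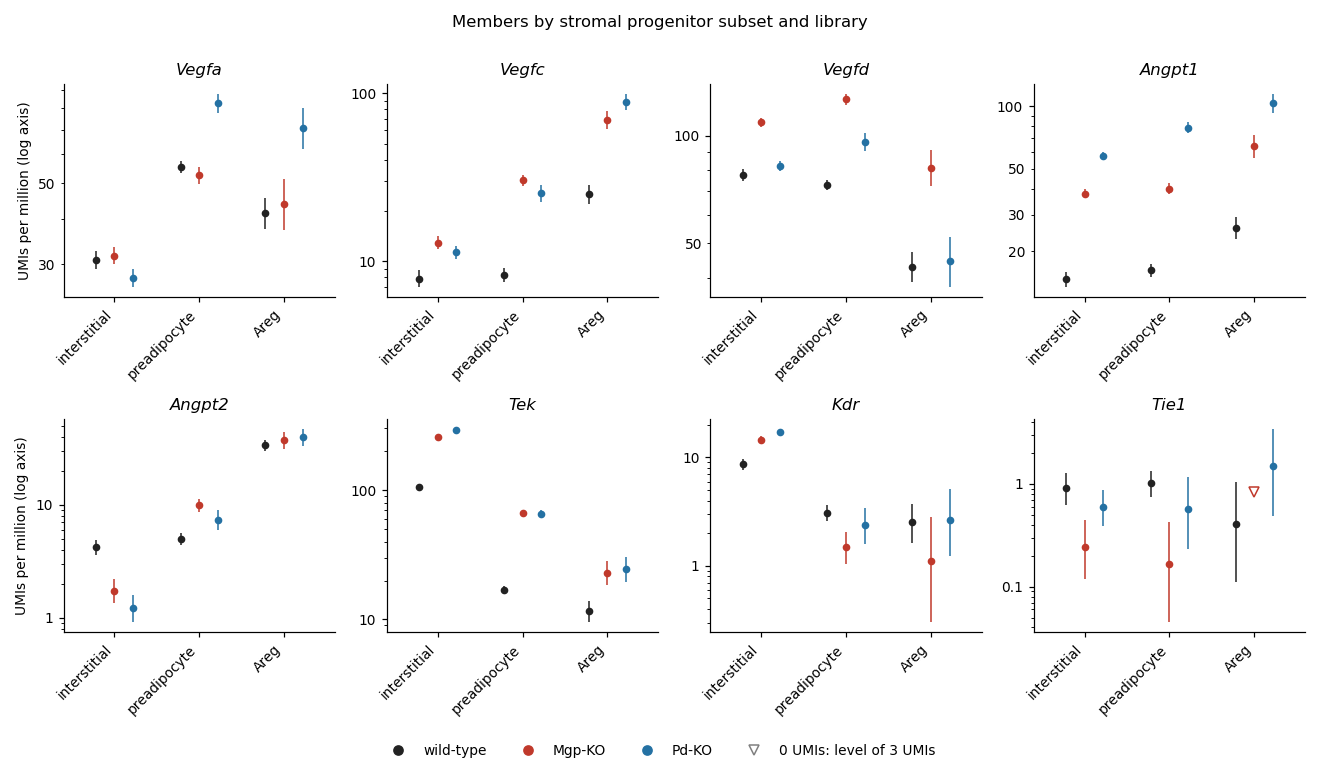
Levels of 8 of the genes in 3 stromal progenitor subsets (CPM, log axis), 1 point per library with its 95% Poisson interval and open triangles where 0 UMIs were found, at the level of 3 UMIs. *Tek* and *Kdr* are highest in interstitial cells, *Vegfc*, *Angpt1* and *Angpt2* in Areg cells and *Vegfa* in preadipocytes, in all 3 libraries.

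Genotypes were compared as log2 ratios of summed UMIs, knockout over wild-type, for genes with at least 50 UMIs over both libraries. Ratios were higher for genes of longer genomic span. In the stromal gate the median log2 ratio was -0.14 (*Mgp*-KO) and -0.25 (*Pd*-KO) for genes under 10 kb and 1.38 and 1.61 for genes over 100 kb, of which 65.3% and 71.4% differed by 2-fold or more. The headers name Cell Ranger 4 for wild-type and 7.1.0 for both knockouts, so a software difference and the genotype cannot be told apart. For that reason the ratios to wild-type are read against the median of the 200 tested genes nearest in span, called the span median. *Angpt1* spans 252 kb (chr15:42424723-42676977 in GRCm38), *Flt1* 164 kb (chr5:147561604-147726011), *Tek* 136 kb (chr4:94739289-94874976) and *Vegfc* 109 kb (chr8:54077606-54187096). The others are shorter, at 51.3 kb for *Angpt2* (chr8:18690263-18741562), 45.6 kb for *Kdr* (chr5:75932827-75978458), 43.5 kb for *Flt4* (chr11:49609263-49652739), 29.3 kb for *Vegfd* (chrX:164373378-164402650), 18.9 kb for *Tie1* (chr4:118471191-118490061) and 15.4 kb for *Vegfa* (chr17:46016993-46032369).

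**Figure D4:**
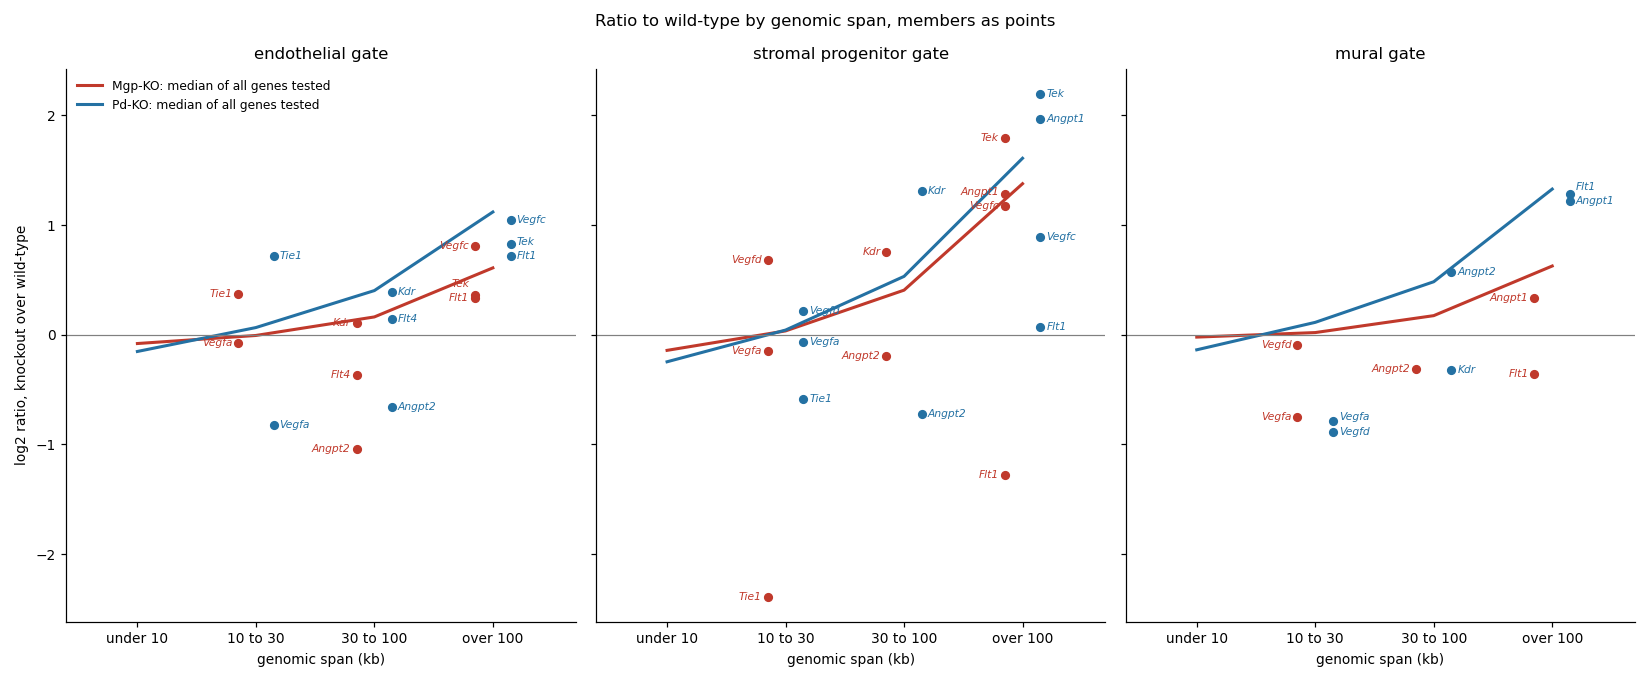
Median log2 ratio of all tested genes in 4 bins of genomic span (lines, 1 per knockout) and the ratios of the tested members (points, set beside their bin) in 3 gates. Lines climb to 1.38 and 1.61 in the stromal gate for genes over 100 kb, and *Tek* lies above them at 1.79 and 2.20.

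Over all cells of the endothelial gate the receptors differed from wild-type by less than 2-fold. Of the 8 members tested, 1 was past 2-fold in *Mgp*-KO (*Angpt2*, lower) and 1 in *Pd*-KO (*Vegfc*, higher), against 10.9% and 17.4% of all genes tested, while *Vegfd* and *Angpt1* had too few UMIs. The members' shares were close to the background. The members' median log2 ratio was 0.22 and 0.55, and that of all genes 0.08 and 0.17. *Kdr* had a log2 ratio of 0.11 (0.00 to 0.21) in *Mgp*-KO and 0.39 (0.32 to 0.45) in *Pd*-KO, with span medians of 0.06 and 0.32, so it was close to genes of its span. *Flt1* (0.33 and 0.72) and *Tek* (0.36 and 0.83) lay under span medians of 0.54 and 0.96 for the first and 0.44 and 0.90 for the second. In male cells alone *Tek* was 1.11 and 1.10, and *Flt1* in *Pd*-KO was 1.15, so these values were past 2-fold. *Tie1* is a short gene and stood above its span medians of 0.04 and 0.08, at 0.38 (0.16 to 0.59) and 0.72 (0.58 to 0.85). The *Mgp*-KO value fell to 0.05 in cells with at least 3000 UMIs. In capillary cells *Tie1* gave 0.18 (-0.07 to 0.43) and 0.54 (0.38 to 0.70), beside span medians of 0.01 and 0.08, so only the *Pd*-KO interval left out its span median. Of all tested genes, 72.8% and 78.1% had lower ratios than *Tie1* in the endothelial gate. In capillary cells the shares were 58.9% and 70.5%, so many genes had higher ratios. *Flt4* was -0.37 (-0.92 to 0.15) and 0.14 (-0.16 to 0.44), with intervals that included 0 and span medians of 0.11 and 0.37.

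Of the ligands in the endothelial gate, *Angpt2* had log2 ratios of -1.04 (-1.80 to -0.36) and -0.66 (-1.05 to -0.28), on 207 UMIs in wild-type and 19 and 78 in the knockouts, while genes of its span had medians of 0.19 and 0.35. The *Mgp*-KO value was 0.03 in female cells and -2.68 in male cells, and the *Pd*-KO value 0.48 and -1.06, so neither knockout was lower in female cells. Female cells, by *Xist* without Y-linked genes, were 33.4%, 59.6% and 32.1% of cells. Male cells, by Y-linked genes without *Xist*, were 33.1%, 14.3% and 38.7%, and the rest were called neither. Venular and lymphatic cells were fewer in the knockouts. The part of sex and of these subsets in the result was not tested. In capillary cells alone, *Angpt2* gave -0.48 (-1.35 to 0.30) and -0.19 (-0.68 to 0.29), with span medians of 0.18 and 0.34. *Vegfa* had log2 ratios of -0.08 (-0.91 to 0.68) and -0.82 (-1.45 to -0.23), on 95, 17 and 32 UMIs. Span medians were 0.05 and 0.04, so the level summed over the gate was lower in *Pd*-KO. In capillary cells alone the *Pd*-KO value was -0.37 (-1.25 to 0.49), beside a span median of 0.04. Arterial cells, higher in *Vegfa* than capillary cells in wild-type, numbered 67 in wild-type and 33 in *Pd*-KO, and their part was not tested. *Vegfc* had log2 ratios of 0.81 (0.39 to 1.23) and 1.05 (0.77 to 1.33), with span medians of 0.37 and 0.80. In capillary cells the *Vegfc* ratios were 1.64 (0.86 to 2.42) and 1.501 (0.90 to 2.12), where span medians were 0.34 and 0.87.

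In the stromal gate, where *Flt4* had too few UMIs, 5 of 9 tested members were past 2-fold in *Mgp*-KO (*Vegfc*, *Angpt1* and *Tek* higher, *Flt1* and *Tie1* lower) against 24% of all genes, and 3 of 9 in *Pd*-KO (*Kdr*, *Angpt1* and *Tek* higher) against 29.6%, which is close to the members' share. The members' median log2 ratio was 0.68 and 0.21, and that of all genes 0.16 and 0.21. *Angpt1* was at 17.0, 41.5 and 66.6 CPM, with log2 ratios of 1.28 and 1.97, below or at span medians of 1.83 and 1.98. *Tek* had log2 ratios of 1.79 (1.75 to 1.84) and 2.20 (2.15 to 2.24), above span medians of 1.01 and 1.10. The interstitial subset, high in *Tek*, held 2533, 5581 and 4533 cells, and the part of these numbers in the stromal ratio was not tested. Inside that subset the *Tek* log2 ratios were 1.28 (1.22 to 1.33) and 1.47 (1.41 to 1.52) and the span medians 0.82 and 1.13. The paper divides cells high in *Dpp4* and *Pi16* into clusters, including a cluster found mainly after *Mgp* deletion. The interstitial subset does not part these clusters, and the part of their mix in this ratio was not tested.

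The VEGF ligand closest to wild-type in the stromal gate was *Vegfa*. It had log2 ratios of -0.15 (-0.22 to -0.09) and -0.07 (-0.13 to 0.00), with span medians of -0.01 in both. Its subsets parted in *Pd*-KO, with -0.17 (-0.28 to -0.05) in interstitial cells, 0.58 (0.47 to 0.68) in preadipocytes and 0.77 (0.54 to 1.01) in Areg cells, against 0.04, -0.08 and 0.08 in *Mgp*-KO. The span medians of these subsets were -0.06, 0.03 and 0.12 in *Pd*-KO and -0.01, -0.02 and 0.07 in *Mgp*-KO. The Areg value of *Vegfa* differed between cells called female and cells called male, and this difference was not tested. It was 1.25 in female and 0.18 in male cells of *Pd*-KO, and 0.65 and -0.96 in *Mgp*-KO. *Vegfd* was 0.68 (0.64 to 0.73) and 0.21 (0.16 to 0.26), with span medians of 0.15 and 0.20. *Vegfc* was 1.18 and 0.89 beside span medians of 0.96 and 1.16, and higher in preadipocytes, at 1.86 (1.69 to 2.04) and 1.61 (1.39 to 1.82) beside 1.04 and 1.24. In Areg cells *Vegfc* was 1.48 (1.22 to 1.74) and 1.83 (1.58 to 2.08), beside 0.71 and 1.05. Interstitial cells gave 0.71 and 0.52, under span medians of 0.80 and 1.05. *Kdr* was 0.76 (0.60 to 0.92) and 1.31 (1.16 to 1.47), with span medians of 0.33 and 0.43. The *Pd*-KO value was 0.53 in female and 2.01 in male cells and 0.88 with the span median taken off. The 2-fold difference was thus lost in female cells and against genes of the span of *Kdr*. The interstitial subset, higher in *Kdr* than preadipocytes, held 2533, 5581 and 4533 cells. The part of these numbers in the stromal ratio was not tested. In interstitial cells the *Kdr* ratios were 0.75 (0.56 to 0.96) and 0.99 (0.80 to 1.19), beside span medians of 0.24 and 0.42. Preadipocytes gave -1.05 and -0.38, on very small signals, beside 0.33 and 0.50. Neither subset was thus 2-fold higher in *Pd*-KO, and Areg cells had too few UMIs.

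*Flt1* and *Tie1* were no higher in stromal than in luminal cells, except *Tie1* in *Pd*-KO, where luminal cells held 0 UMIs. *Flt1* was 3.15, 1.30 and 3.31 CPM and *Tie1* 0.941, 0.180 and 0.626 CPM, so their log2 ratios in *Mgp*-KO, -1.28 and -2.39, compare very small signals. The span medians were 1.24 for *Flt1* and 0.05 for *Tie1*. The endothelial markers summed over the stromal gate to 40.9, 26.1 and 37.8 CPM, lowest in *Mgp*-KO too, and their part in these ratios was not tested.

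In the mural gate 0 of 5 tested members were past 2-fold in *Mgp*-KO, where 13.6% of all genes were, and 2 of 6 in *Pd*-KO (*Flt1* and *Angpt1*, both higher), where 21.4% were. The members' medians were -0.31 and 0.13, and those of all genes 0.11 and 0.26. *Angpt1* in *Pd*-KO was 1.22 (0.98 to 1.45) and *Flt1* 1.29 (0.74 to 1.83), with span medians of 1.65 and 1.23. *Vegfa* was lower in both, at -0.75 (-1.78 to 0.12) and -0.79 (-1.34 to -0.27), while its span median was 0.07 and 0.08. Only the *Pd*-KO interval of the 2 left out 0. *Angpt2* was -0.31 (-0.79 to 0.13) and 0.57 (0.36 to 0.78), the latter near its span median of 0.49.

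**Figure D5:**
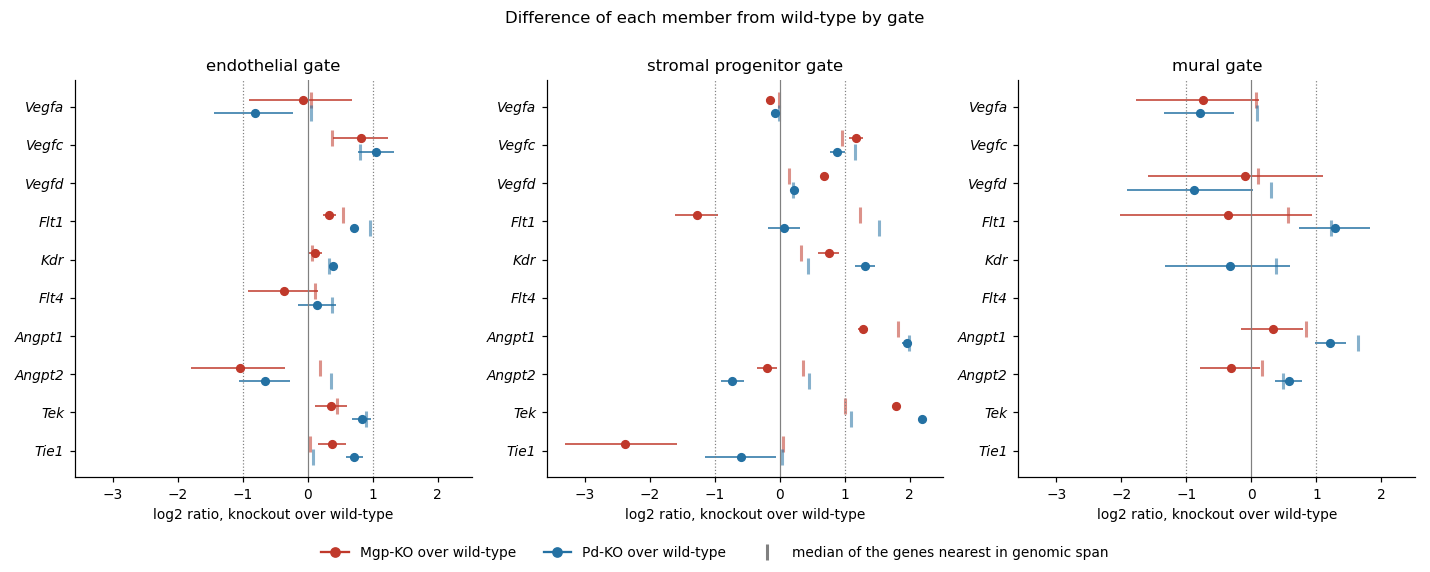
Log2 ratio of each tested member over wild-type in 3 gates (points with 95% intervals), with vertical ticks at the median of the 200 genes nearest in span and dotted lines at 2-fold. *Angpt1* points lie at or left of their ticks, *Tek* points in the stromal gate lie right of theirs (1.79 and 2.20 against 1.01 and 1.10), and *Angpt2* lies left in the endothelial gate.

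The knockouts could also be set against each other, since their headers name 1 software version. *Pd*-KO over *Mgp*-KO gave a log2 ratio of 0.41 (0.37 to 0.44) for stromal *Tek* and 0.19 (0.15 to 0.23) within interstitial cells. *Angpt1* was 0.68 (0.62 to 0.75) in the stromal gate and *Vegfa* 0.65 (0.53 to 0.77) in preadipocytes. Genes over 100 kb had a median of 0.25 in the stromal gate in this comparison too, and *Tek* and *Angpt1* lay above it. Within interstitial cells that median was 0.30, and *Tek* lay below it. *Vegfa* is shorter, and genes of 10 to 30 kb had a median of 0.03 in preadipocytes.

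A list of 19 other genes of the pathway was near the background in the endothelial gate. In *Mgp*-KO 0 were higher and 2 lower (*Pgf* and *Apln*) of 16 tested, and in *Pd*-KO 1 was higher (*Aplnr*) and 1 lower (*Pgf*) of 16, where 10.9% and 17.4% of all genes were past 2-fold. *Pgf*, placental growth factor, a FLT1 ligand, was at 19.4 CPM (15.9 to 23.4), 5.71 CPM (2.10 to 12.4) and 5.74 CPM (3.45 to 8.96). That is a log2 ratio of -1.76 in both, with span medians of -0.03 and 0.00. The 3 genes with most UMIs in the gate were *Ptprb*, the phosphatase that restrains TEK, at 789, 996 and 994 CPM, *Nrp1*, a VEGF co-receptor, at 679.5, 872 and 1102 CPM, and *Epas1*, a hypoxia-inducible factor, at 419, 471 and 514 CPM.

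In the stromal gate 17 of the list were tested, with 2 higher and 4 lower in *Mgp*-KO and 3 higher and 1 lower in *Pd*-KO, where 24% and 29.6% of all genes were past 2-fold. *Adamts3* and *Ccbe1*, which together process VEGF-C to its active form, were both higher. *Adamts3* was 1.06, 6.86 and 6.03 CPM, with log2 ratios of 2.70 and 2.51 and span medians of 1.51 and 1.77. *Ccbe1* was 3.60, 8.52 and 7.56 CPM, with ratios of 1.24 and 1.07 that lay below span medians of 1.83 and 2.05. Within the stromal gate the Areg subset held *Ccbe1* at 23.5, 88.2 and 94.8 CPM. Luminal cells held it at 24.2, 124 and 244 CPM. Free RNA was at 1.74, 17.7 and 24.5 CPM, above the stromal level in both knockouts, and its part in the stromal ratios was not tested. *Sox17*, an arterial transcription factor and 1 of the arterial markers used here, was 0.795, 0.180 and 0.336 CPM and thus lower in both. These levels rest on 87, 14 and 22 UMIs. Luminal cells held *Sox17* at 0.936, 2.32 and 0 CPM and free RNA at 18.3, 6.33 and 19.7 CPM, so the difference is between very small signals. In the mural gate 9 were tested, with 1 higher and 1 lower in *Mgp*-KO and 3 higher and 1 lower in *Pd*-KO, where 13.6% and 21.4% of all genes were past 2-fold. *Nrp1* was higher in both knockouts (93.2, 195 and 251 CPM), at log2 ratios of 1.07 and 1.43 beside span medians of 0.50 and 1.12.

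Genes whose levels tracked each member were sought over the 16 gate and library points with at least 50 cells, among 14483 genes. Points of 1 library share its depth and free RNA, so the correlations are descriptions. *Tie1* was most like *Tmem252* and *Rasip1* (Pearson r of 0.98 for both), *Kdr* like *Hcls1* and *Exoc3l2* (0.97 and 0.97), *Flt1* like *Gpr4* and *Emcn* (0.96 and 0.96) and *Flt4* like *Gimap4* and *Aplnr* (0.995 and 0.995). The points are whole gates, so the vessel subsets of the endothelial gate were not among them. In wild-type lymphatic, capillary, arterial and venular cells *Flt4* was 181, 38.7, 26.7 and 4.99 CPM, and *Aplnr* 0, 164, 9.70 and 116 CPM. The likeness of *Flt4* to *Aplnr* thus did not extend to these subsets. *Tek* was most like *P2ry10b* and *Pdia5* (0.95 and 0.95). Of the ligands, *Vegfd* was most like *Scara3* and *Sult5a1* (0.97 and 0.93), *Angpt1* like *Dtx2* and *Gm16201* (0.94 and 0.90), *Angpt2* like *Arhgef7* and *Sparcl1* (0.95 and 0.94), *Vegfc* like *Mtmr11* and *Ccnyl1* (0.91 and 0.90) and *Vegfa* like *Nme2* and *Ergic1* (0.91 and 0.90).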

How the data were processed

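Single cells of 3 libraries were profiled by 10x Genomics 3′ sequencing. The authors deposited raw gene-by-barcode UMI counts, not normalized, from Cell Ranger. The labels name version 6.1.1 and GRCm39, while the file headers name 4 for wild-type and 7.1.0 for both knockouts. Whether intronic reads were counted is not given in the sources used here.

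Barcodes with at least 1000 UMIs and at most 10% mitochondrial UMIs were kept. A gate needed at least 3 of 6 markers and 2 more than any other class. A subset needed at least 2 of 5 markers and more than any other. No doublet caller was run, and cells with markers of 2 classes were left ungated by that margin. Libraries shared 43, 42 and 37 kept barcodes. Levels are summed UMIs as CPM. Ratios needed 50 UMIs over both libraries, "past 2-fold" is a log2 ratio of 1 or more in size, and 0.5 counts were added only where no minimum was set. Free RNA was read from barcodes of 10 to 100 UMIs. Spans came from GENCODE M21 (GRCm38), used here for length and position.

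Named genes were the 10 members, the 2 genes most like each, other pathway genes past 2-fold the same way in both knockouts, and up to 6 with most UMIs. Members, lists and rules were chosen with earlier results of these data known. The 11 alternatives were supplemented, after the data were seen, by cells with at least 4 adipocyte markers, cells with no endothelial marker UMI, and *Pd*-KO over *Mgp*-KO. Python 3.11.15, numpy 2.4.6, scipy 1.17.1 and pandas 2.3.3 were used, and the scripts were checked on simulated data. Counting intervals cover neither mouse-to-mouse nor preparation error.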

Additional observations from a re-analysis of the deposited data

Results flagged for a closer look

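In 10 cases, each 1 gene in 1 knockout over a pair of gates, the log2 ratio to wild-type lay on opposite sides of 0. Both counting intervals left out 0, and 5 genes were involved. The share of all genes with such a pattern was not worked out, so the count has no background beside it. None of these differences was tested, since each genotype was 1 library. In *Mgp*-KO, *Flt1* was 0.33 in the endothelial gate and -1.28 in the stromal progenitor gate, where genes of its span had medians of 0.54 and 1.24. *Tie1* was 0.38 and -2.39 in the same gates, beside span medians of 0.04 and 0.05. Its endothelial value was 0.05 in cells with at least 3000 UMIs. In *Pd*-KO, *Tie1* was 0.72 in the endothelial and -0.59 in the stromal gate, beside 0.08 and 0.04. Stromal cells held *Flt1* at 3.15, 1.30 and 3.31 CPM and *Tie1* at 0.941, 0.180 and 0.626 CPM, so the stromal values compare very small signals. In wild-type and *Mgp*-KO both genes were lower there than in luminal cells. *Angpt2* in *Pd*-KO was 0.57 in the mural gate, against -0.66 in the endothelial and -0.73 in the stromal gate, beside span medians of 0.49, 0.35 and 0.46, so the mural value was near that of genes of its span. In female cells the endothelial value was 0.48, which is no longer opposite to the mural one.

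Within the stromal gate, *Kdr* in *Mgp*-KO was 0.75 in interstitial progenitors and -1.05 in preadipocytes, beside span medians of 0.24 and 0.33. Preadipocytes held *Kdr* at 3.08 and 1.49 CPM in wild-type and *Mgp*-KO, and luminal cells at 6.55 and 0.580 CPM, so the preadipocyte value compares very small signals. *Angpt2* was -1.27 in interstitial progenitors and 0.98 in preadipocytes of *Mgp*-KO, beside span medians of 0.27 and 0.47. In *Pd*-KO it was -1.79 and 0.56, beside 0.45 and 0.56, so the preadipocyte value did not stand above genes of its span. Interstitial cells held *Angpt2* at 4.20, 1.74 and 1.21 CPM, so the interstitial values compare very small signals. *Vegfa* in *Pd*-KO was -0.17 in interstitial progenitors, 0.58 in preadipocytes and 0.77 in Areg cells, beside span medians of -0.06, 0.03 and 0.12. The Areg value was 1.25 in female and 0.18 in male cells.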

How the results depend on the processing

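No paired analysis was possible because each genotype had 1 library, and no replicate could be left out. With the span median taken off, 7 ratios that were past 2-fold changed sign. *Angpt1* changed to -0.55 (stromal, *Mgp*-KO), -0.019 (stromal, *Pd*-KO), -0.43 (mural, *Pd*-KO), -0.26 (interstitial, *Mgp*-KO), -0.82 (preadipocyte, *Mgp*-KO) and -0.10 (Areg, *Mgp*-KO), and *Tek* to -0.044 (Areg, *Pd*-KO). Some ratios under 2-fold changed sign too, such as stromal *Vegfc* in *Pd*-KO, from 0.89 to -0.27. In female cells, endothelial *Angpt2* in *Mgp*-KO was 0.027 and in *Pd*-KO 0.48 (-0.66 over all cells), so neither was lower, and stromal *Kdr* in *Pd*-KO was 0.53 (1.31 over all cells). *Vegfa* in Areg cells of *Pd*-KO was 1.25 in female and 0.18 in male cells (0.77 over all cells).

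The 1 endothelial member past 2-fold in *Mgp*-KO became 0 at 3000 UMIs per barcode, 4 markers, a margin of 1, mixed cells left out and female cells, 2 with no minimum, and 3 in male cells. The 1 in *Pd*-KO became 0 at 3000 UMIs, 4 markers, the gate median taken off and female cells, 2 with no minimum, and 4 in male cells; with the span median off it was *Angpt2* in place of *Vegfc*. The 5 stromal members in *Mgp*-KO became 2 with the span median off and 3 in male cells. With the span median off, the 3 in *Pd*-KO were *Flt1*, *Angpt2* and *Tek*. The 0 mural members in *Mgp*-KO became 1 with a margin of 1, 2 with no minimum, 1 in female cells, 1 in male cells and 1 at 5% mitochondrial UMIs, and the 2 in *Pd*-KO became 1 with the span median off and 1 in female cells. The cause was not tested. The numbers of members tested and the shares of all genes past 2-fold in these settings are not given here. These counts therefore cannot be set against a background. Small endothelial and mural gates of *Mgp*-KO (335 and 165 cells) limit what their counts can show.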
